A study of Mus musculus with 8 samples.

Results

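C2 and C13 are sorted populations of common myeloid progenitors, the bone marrow cells from which megakaryocytes, erythroid cells, granulocytes and monocytes arise, and the 2 libraries titled C2 were set against the 2 titled C13, which makes 4 of the 8 ATAC-seq libraries of the series. All 4 came from primary bone marrow of wild-type C57BL/6 mice and from cells sorted as KIT+ CD16/32-. C2 cells were CD34bright, CD41+ and CD9+, and C13 cells were CD34dim, CD41- and CD9-, so the 3 markers change together and their parts cannot be told apart. Each preparation held 40000 to 50000 cells that were incubated with the transposase TDE1 and digitonin. Whether the 2 libraries of a population are from different animals is not given in the labels, so p-values below describe the spread between libraries, and that spread may be technical. The series text uses cluster names that match the sample titles only in part, and the names here follow the titles and the sorted phenotype. The CD34dim CD41+ populations C18 and C10 were not compared here.

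In ATAC-seq a transposase inserts adapters into DNA that is not packed in nucleosomes, so promoters and enhancers in use in a cell type give peaks. CD34 is a sialomucin of stem and early progenitor cells, CD41 is the alpha IIb integrin chain of the platelet fibrinogen receptor, and CD9 is a tetraspanin. KIT is the receptor of stem cell factor, and CD16 and CD32 are the Fc gamma receptors that mark granulocyte and monocyte progenitors. During commitment GATA, RUNX, ETS, C/EBP and KLF family factors bind such open regions, and chromatin at lineage genes can open before the genes are fully expressed. Accessibility is not expression, and in bulk libraries a peak in few cells and a weaker opening in all cells cannot be told apart.

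The main measure was the length under F-Seq peaks, in kb, over each protein-coding gene body extended by 10 kb to each side, scaled to the mean total covered length of the 4 libraries. This length is called the covered length of a locus, and differences between populations are C2 minus C13 on the log2(bases + 200) scale. The F-Seq lists held 100000 peaks in each library and covered 88.8 and 90.6 Mb in C2 and 97.6 and 101 Mb in C13, with median peak widths of 691 and 721 bases in C2 and 770 and 800 bases in C13. The HOMER lists held 171712 and 196264 peaks in C2 and 252844 and 249132 in C13. They covered 23.2 and 26.6 Mb in C2 and 35.3 and 34.7 Mb in C13. The share of F-Seq peaks that met a HOMER peak from the same library was 71.1% and 80.8% in C2 and 94.4% and 93.6% in C13. Among the 20000 weakest F-Seq peaks of a list this share was 24.7% and 43.2% in C2 and 81.0% and 78.0% in C13, while among the 20000 strongest it was above 99% in all 4 libraries. The C2 libraries shared 0.561 of their covered bases (Jaccard index), the C13 libraries 0.796, and pairs across populations 0.484 to 0.534. The median SD of a locus between libraries was 0.181 in C2 and 0.0755 in C13 on the log2 scale. Depth is unknown because the lists carry no counts of reads, and its part in these differences was not tested.

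The promoter windows of 5 genes on which the comparison turns are printed first, from RefSeq on GRCm38.p6, each from 250 bases before to 50 after the annotated start, 5′ to 3′ along the gene's strand. Mpo and Mcpt8 were under F-Seq peaks over the whole window in both C2 libraries and had none in C13. Ptf1a and Cd8a showed the reverse. These 4 were taken by rule from the 16 of 62 loci, chosen for naming and with a window, whose promoter followed 1 population, with windows in multicopy families left out, whereas Itga2b, the CD41 gene, was added after its values were seen and was covered in all 4 libraries. The windows are Mpo at chr11:87793534-87793833 (plus strand), Mcpt8 at chr14:56085148-56085447 (minus), Ptf1a at chr2:19445413-19445712 (plus), Cd8a at chr6:71373177-71373476 (plus) and Itga2b at chr11:102469834-102470133 (minus). Capitals mark matches on either strand. The motifs searched were GATAA, the core bound by erythroid and mast cell zinc finger factors of the GATA family. The others were TGTGGT, bound by RUNX factors, and CCGGAA, bound by factors of the ETS family. They also included the palindrome TTGCGCAA, bound by C/EBP factors, and the KLF motif CACCC. No match in these windows overlapped another.
Mpo: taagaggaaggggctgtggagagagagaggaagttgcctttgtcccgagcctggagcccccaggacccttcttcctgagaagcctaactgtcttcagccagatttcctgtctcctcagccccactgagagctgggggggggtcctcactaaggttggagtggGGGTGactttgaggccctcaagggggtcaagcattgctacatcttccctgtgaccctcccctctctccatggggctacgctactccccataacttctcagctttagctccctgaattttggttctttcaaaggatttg
Mcpt8: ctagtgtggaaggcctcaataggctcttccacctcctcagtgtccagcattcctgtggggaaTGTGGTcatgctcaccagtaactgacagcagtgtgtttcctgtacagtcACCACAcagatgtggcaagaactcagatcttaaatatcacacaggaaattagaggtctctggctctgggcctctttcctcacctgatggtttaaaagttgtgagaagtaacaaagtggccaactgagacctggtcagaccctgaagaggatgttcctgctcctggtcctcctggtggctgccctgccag
Ptf1a: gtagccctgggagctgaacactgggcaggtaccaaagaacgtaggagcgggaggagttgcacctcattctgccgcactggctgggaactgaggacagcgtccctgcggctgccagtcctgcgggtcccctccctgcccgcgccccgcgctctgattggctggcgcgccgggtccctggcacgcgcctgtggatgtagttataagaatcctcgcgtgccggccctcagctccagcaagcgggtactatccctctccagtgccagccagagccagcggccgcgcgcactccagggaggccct
Cd8a: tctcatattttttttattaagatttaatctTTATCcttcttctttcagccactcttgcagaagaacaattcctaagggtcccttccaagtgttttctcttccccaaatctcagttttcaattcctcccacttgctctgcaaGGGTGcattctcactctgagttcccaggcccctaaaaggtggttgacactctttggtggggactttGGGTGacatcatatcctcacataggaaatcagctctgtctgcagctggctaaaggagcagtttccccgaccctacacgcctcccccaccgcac
Itga2b: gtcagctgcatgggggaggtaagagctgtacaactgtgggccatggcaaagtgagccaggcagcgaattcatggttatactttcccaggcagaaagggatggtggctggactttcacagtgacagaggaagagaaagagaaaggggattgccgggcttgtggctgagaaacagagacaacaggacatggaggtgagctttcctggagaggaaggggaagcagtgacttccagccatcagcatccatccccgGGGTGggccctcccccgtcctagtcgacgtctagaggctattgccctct
Mcpt8 held 2 matches to the RUNX core, Cd8a held 1 to the GATA core and 2 to the KLF motif, Mpo and Itga2b held 1 KLF match each, and Ptf1a held none. Of 32851 RefSeq promoter windows of the same length, the GATA core stood in 25.4%, the RUNX core in 16.8%, the ETS core in 14.9%, the C/EBP palindrome in 0.183% and the KLF motif in 57.5%. A match describes the letters of a window only. HOMER placed 2 and 2 peaks over the Mpo window in C2 and 0 and 0 in C13. Over the Cd8a window it placed 0 and 0 in C2 and 3 and 1 in C13, and over the Ptf1a window 0 and 0 in C2 and 2 and 0 in C13. At Mcpt8 the 2 callers differed, since HOMER placed 1 and 1 peaks over the window in C2 but 4 and 1 in C13. The Itga2b window had 3 and 2 HOMER peaks in C2 and 2 and 2 in C13.

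Whether the loci of the sorting markers differ between the populations was asked first, because it checks the labels. None of the 7 marker loci passed the test on covered length (limma, Benjamini-Hochberg adjusted p from 0.114 to 0.958). By that test 5.59% of all loci were higher and 4.57% lower in C2. The ranks of single peaks had the sign of the sort at Itga2b and Cd9. Some peaks at Kit, Fcgr3 and Fcgr2b, by which both populations were gated alike, also ranked stronger in C2. Itga2b (chromosome 11, 102453297 to 102469883) was covered over 5.88 and 3.71 kb in C2 and 3.0002 and 2.87 kb in C13 (log2 0.64, SE 0.248, adjusted p = 0.160). The C2 values lay above the C13 values without overlap, but the C2 libraries lay far apart. Cd9 had 8.84 and 11.9 kb in C2 and 9.45 and 8.76 kb in C13 (0.17, adjusted p = 0.519), and Cd34 had 14.0 and 11.5 kb in C2 and 13.6 and 12.1 kb in C13 (-0.01, adjusted p = 0.958). Both overlapped between the populations. Kit, by which both populations were gated alike, also overlapped, with 8.56 and 7.25 kb in C2 and 8.31 and 10.8 kb in C13 (-0.26, adjusted p = 0.342). Cd48, a SLAM family receptor, had log2 0.26 (adjusted p = 0.191). The CD16 and CD32 genes Fcgr3 and Fcgr2b had 0.31 and 0.48 (adjusted p = 0.283 and 0.114). With only the 20000 strongest peaks of each library, where 16.6% of all loci were called higher and 8.18% lower, Itga2b (3.89, adjusted p = 0.000783) and Cd9 (1.07, adjusted p = 0.0243) were called higher in C2, and the other 4 marker loci that could be tested were not called.

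For single peaks, the strength was the rank of the peak by F-Seq signal within its library, where 1 is the strongest, and differences are on the -log2(rank) scale, so that a positive value means a stronger rank in C2. The test took the 57286 regions with a peak in all 4 libraries, of which 12442 (21.7%) ranked stronger and 9406 (16.4%) weaker in C2 (limma, adjusted p under 0.05). Without C13 replicate 1 or 2, these numbers were 6360 and 6384 stronger and 6231 and 6034 weaker. Regions over the end of a gene body, where promoters lie, shifted as a class: 35.4% ranked stronger and 4.55% weaker in C2, with a median of 0.56, against 18.3% and 19.7% inside gene bodies and a median of 0.08. Promoter regions below are read against that shift. Regions are called private where each library of one population, but no library of the other, had an F-Seq peak, and they made up 5.84% (C2) and 13.1% (C13) of 147629 consensus regions.

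Of the 29 regions tested at the 7 marker loci 12 ranked stronger and 3 weaker in C2. The region over the Itga2b start ranked 13521 and 9733 in C2 and 54115 and 58401 in C13 (2.29, SE 0.282, adjusted p = 2.67e-05). The populations did not overlap, and the difference was larger than the median of regions over gene ends. All 3 Itga2b regions that could be tested ranked stronger in C2. At Cd9, 3 of the 4 tested regions ranked stronger in C2, and the foremost, inside the gene, ranked 15468 and 9425 in C2 and 33891 and 33180 in C13 (1.47, adjusted p = 0.00155). Cd9 held 3 regions private to C2 and 1 private to C13, the last with ranks 13826 and 7697 in C13. Cd34 had 2 of 9 tested regions stronger in C2, and its start region, with ranks 2431 and 2186 in C2 and 1202 and 3087 in C13, overlapped (-0.26, adjusted p = 0.675). The Kit start region ranked 4803 and 4056 in C2 and 9748 and 9313 in C13 (1.11, adjusted p = 0.0114), and a region within the gene ranked 68177 and 76154 in C2 and 30204 and 26179 in C13 (-1.36, adjusted p = 0.000868). Kit thus held 1 stronger and 1 weaker region.

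**Figure D1:**
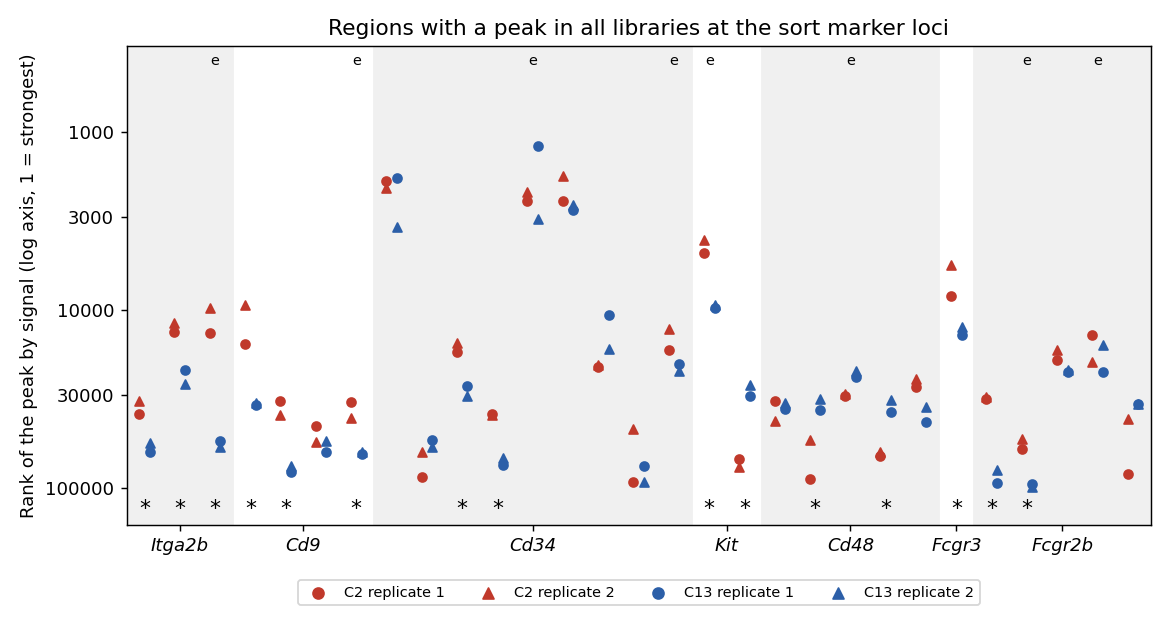
Rank of each F-Seq peak by signal (log axis, 1 = strongest, at the top) for the 29 regions at the 7 sort marker loci that had a peak in all 4 libraries, with C2 points left of C13 points, replicate 1 as circles and replicate 2 as triangles. An asterisk marks adjusted p under 0.05 (limma) and e marks a region over a gene end, and all 3 Itga2b regions carry an asterisk with C2 above C13.

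Across all loci, 1005 of 17989 (5.59%) were higher and 822 (4.57%) lower in C2 (limma, adjusted p under 0.05), and the smallest adjusted p, 0.0220, was shared by many of them. Over all tested loci the median difference was 0.11 with scaling and -0.03 without it. Of the calls, 55.0% were higher with scaling, 32.6% without scaling, 31.5% with upper-quartile scaling and 32.0% in the HOMER lists, so the balance of higher and lower calls follows the scaling and the caller. Without scaling 2.81% of loci were higher and 5.81% lower in C2, and in the HOMER lists 364 of 18482 loci (1.97%) were higher and 772 (4.18%) lower. The HOMER sign was the same for 827 of the 988 higher loci that could be tested there and for 764 of the 822 lower loci, beside 12758 of 17958 (71.0%) over all loci, and 73 and 302 of them were also called in that direction. Without C2 replicate 2 the numbers were 3370 higher and 2413 lower, without C13 replicate 1 they were 14 and 0 (2599 loci then had an unadjusted p under 0.05), and without C13 replicate 2 they were 14 and 1. With a C13 library left out, the spread of a locus comes from the C2 libraries alone.

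Granulocyte and monocyte genes moved in both directions, with 5 of 31 tested loci higher and 4 lower in C2 (median 0.21). Mpo, among the largest changes, encodes myeloperoxidase, the enzyme of neutrophil primary granules. Mpo (chromosome 11, 87793784 to 87804412) was covered over 18.3 and 17.0 kb in C2 and 3.16 and 3.48 kb in C13 (log2 2.34, SE 0.112, adjusted p = 0.0220). Each C2 library thus held several times the length of either C13 library. Peaks ran across the Mpo start in C2 with ranks 13936 and 13688, where the C13 libraries held peaks only inside the gene with ranks 67468 and 65591 (2.27, adjusted p = 1.68e-05). In C2 peaks also covered the 3′ end and the space up to the neighbour Lpo, a lactoperoxidase gene that shares these peaks (13.3 and 13.2 kb in C2, 2.48 and 2.13 kb in C13). The region farthest downstream went the other way, with ranks 25705 and 20380 in C2 and 11695 and 7322 in C13 (-1.31, adjusted p = 0.00445). In the HOMER lists Mpo had the same sign and missed the threshold (1.21, adjusted p = 0.0592).

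**Figure D2:**
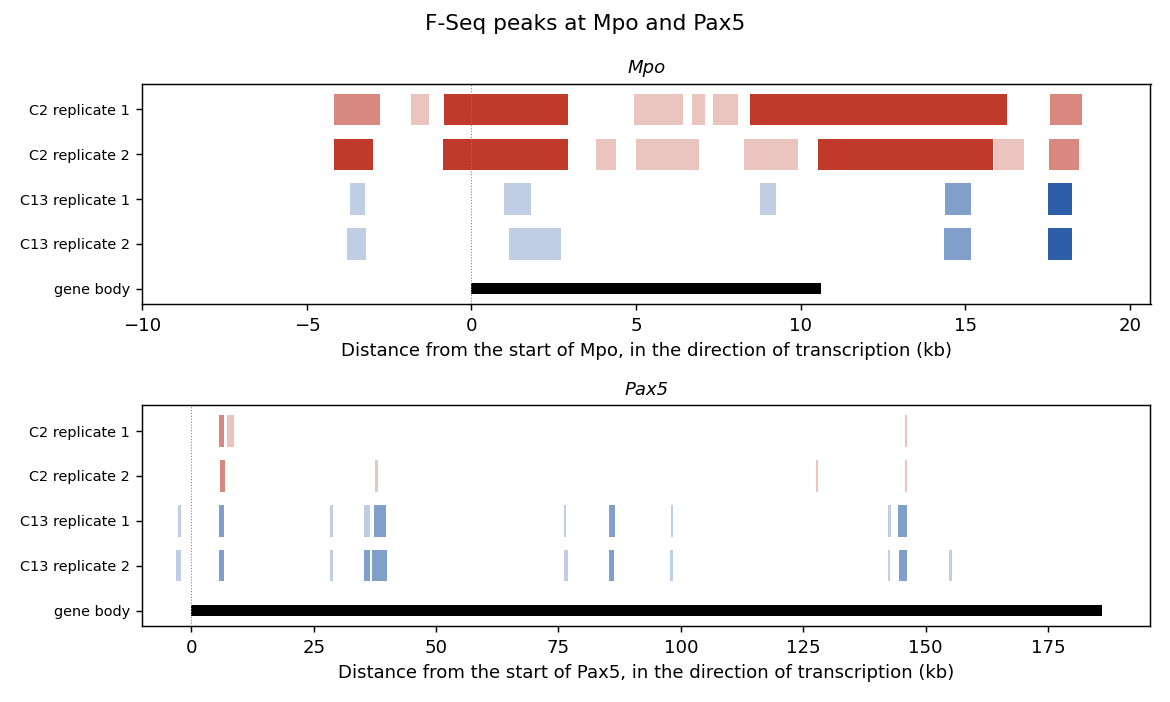
F-Seq peaks of the C2 libraries and, under them, the C13 libraries at Mpo and Pax5, as bars along the distance from the gene start (kb, in the direction of transcription), with the gene body as a black line. Full colour marks a peak among the 20000 strongest of its library, medium shade among the 50000 strongest and pale shade the rest. At Mpo the widest peaks, over the start and around the gene's end, are those of C2, while the peak farthest downstream ranks stronger in C13, and at Pax5 most peaks are those of C13.

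Ms4a3, a membrane protein gene of granulocyte and monocyte progenitors, had 3.52 and 3.50 kb in C2 and 0.559 and 0.498 kb in C13 (log2 2.35, SE 0.183, adjusted p = 0.0220). Its populations were far apart, and it was also called with HOMER (1.37, adjusted p = 0.0374). Camp, the cathelicidin of secondary granules, had 1.12 and 0.996 kb in C2 and no F-Seq peak in C13 (adjusted p = 0.0220; HOMER 0.93, adjusted p = 0.0272). S100a8, a calcium-binding protein of neutrophils, had 2.17 and 3.64 kb in C2 and 0.434 and 0.531 kb in C13 (2.15, adjusted p = 0.0317), but its HOMER difference was only 0.06. Cebpe, the C/EBP factor of late granulocyte maturation, had 7.49 and 7.41 kb in C2 and 3.52 and 4.20 kb in C13 (0.92, adjusted p = 0.0330). A region outside the Cebpe gene body (chromosome 14, 54705291 to 54707732) ranked 4267 and 2782 in C2 and 78286 and 73477 in C13 (4.46, SE 0.301, adjusted p = 3.78e-07). It was among the 20000 strongest peaks of both C2 libraries and among the weaker peaks of both C13 libraries.

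The 4 granulocyte and monocyte loci lower in C2 were led by Irf8, a factor required for monocyte and dendritic cell development. Irf8 (chromosome 8, 120736358 to 120756694) had 3.16 and 5.05 kb in C2 and 12.8 and 16.1 kb in C13 (log2 -1.80, SE 0.256, adjusted p = 0.0318). The populations did not overlap, yet none of its 4 regions with peaks in all libraries changed rank. The difference lay in width: the region at the end of the gene was covered over 1328 and 2092 bases in C2 and 6505 and 6654 bases in C13, before scaling, and its ranks were 43140 and 58674 in C2 and 55400 and 49643 in C13. The next region downstream, of 4144 bases, had peaks in the C13 libraries only. HOMER gave Irf8 the same sign without a call (-0.50, adjusted p = 0.245). F13a1, the coagulation factor XIII subunit that monocytes also make, had 1.36 and 1.92 kb in C2 and 5.17 and 6.13 kb in C13 (-1.68, adjusted p = 0.0307), and HOMER also called it lower (-1.11, adjusted p = 0.0272). With the 20000 strongest peaks alone F13a1 showed 0.07. Cd177 and Ltf, a neutrophil surface protein gene and the lactoferrin gene, fell by 1.35 and 1.00 (adjusted p = 0.0399 and 0.0483). Elane, neutrophil elastase, and its neighbour Prtn3, proteinase 3, other genes of the primary granules, showed 0.21 and 0.33 and did not pass (adjusted p = 0.196 and 0.0858). With the 20000 strongest peaks both were called higher in C2, with the same value for the 2 neighbours (4.91, adjusted p = 0.00824), and HOMER called Prtn3 higher (0.81, adjusted p = 0.0493).

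Among the 20 tested mast cell, basophil and eosinophil loci, 4 were higher and 1 lower in C2 (median 0.58, and -0.14 over 12 loci with the 20000 strongest peaks). Cpa3, the mast cell carboxypeptidase, had 5.43 and 5.59 kb in C2 and 1.52 and 1.41 kb in C13 (log2 1.78, SE 0.149, adjusted p = 0.0220). Its start was under an F-Seq peak in both C2 libraries and in neither C13 library, and the region upstream ranked 8426 and 7190 in C2 and 54114 and 55499 in C13 (2.82, adjusted p = 4.29e-06). Mcpt8, the basophil protease whose promoter is printed above, had 2.09 and 1.59 kb in C2 and no F-Seq peak in C13 (adjusted p = 0.0220). HOMER gave Mcpt8 0.27 and Cpa3 0.59, neither called. It called 3 of the 20 loci higher in C2 and none lower, beside 1.97% and 4.18% of all loci. These were Ms4a2, Hdc and Siglecf (1.23, 1.02 and 0.89, adjusted p = 0.0364, 0.0361 and 0.0412), which did not pass with F-Seq (1.86, 0.31 and 0.71). Il5ra, the interleukin 5 receptor alpha chain of eosinophils, had 7.32 and 7.11 kb in C2 and 4.89 and 4.87 kb in C13 (0.54, adjusted p = 0.0496), and lost its call in 17 of 20 alternatives. Ear2, an eosinophil ribonuclease of a multicopy family with uncertain read placement, fell by 1.15 (adjusted p = 0.0477). Gata2, which this list shares with the transcription factors, is given with them.

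Of 32 tested megakaryocyte loci 6 were higher and none lower in C2, with a median of 0.41. Without scaling 4 were higher, in the HOMER lists 1 of 31, and with the 20000 strongest peaks 12 of 29, where 2 were lower. With those peaks 16.6% of all loci were higher and 8.18% lower. Over all loci 2.81% were higher without scaling and 1.97% in the HOMER lists. The HOMER call was Plek (0.69, adjusted p = 0.0432), which did not pass with F-Seq (0.14, adjusted p = 0.591). Rab27b, a GTPase needed to release platelet dense granules, had 11.8 and 11.4 kb in C2 and 3.14 and 3.88 kb in C13 (log2 1.68, SE 0.143, adjusted p = 0.0220). Nfe2, the factor of platelet release, had 13.3 and 11.9 kb in C2 and 6.56 and 6.39 kb in C13 (0.94, SE 0.108, adjusted p = 0.0271). At both loci the covered lengths did not overlap, but of the 3 Rab27b regions tested for rank 1 was stronger and 2 were weaker in C2, and 5 of its 16 regions were private to C2. The region over the higher-coordinate end of Nfe2 was strong in every library, at ranks 1710 and 708 in C2 and 2511 and 2916 in C13 (1.30, adjusted p = 0.0314). Mmrn1, the platelet protein multimerin, Cd226, an adhesion receptor, and Treml1, a platelet alpha granule receptor, were also called (log2 1.08 and 0.73 for Mmrn1 and Cd226), and Treml1 had 0.793 and 1.48 kb in C2 and no F-Seq peak in C13. Pf4, the platelet factor 4 gene, and Vwf, the von Willebrand factor gene, did not pass (0.40 and 0.15, adjusted p = 0.255 and 0.481), though Pf4 was called higher with the 20000 strongest peaks (4.18, adjusted p = 0.000905). The called members were a minority of the list.

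In the erythroid list 9 of 34 tested loci were higher and none lower in C2, with a median of 0.55. The number higher was 3 without scaling and 2 in the HOMER lists, and with the 20000 strongest peaks 7 of 24 were higher and 3 lower. Over all loci these peaks gave 16.6% higher and 8.18% lower, and 2.81% were higher without scaling and 1.97% in the HOMER lists. With scaling the 18 tested housekeeping loci had a median of 0.38 with 2 higher, Eef2 and Rpl13a (0.25 and none higher without scaling), and the erythroid median is read beside that value. Alas2, the erythroid enzyme that starts haem synthesis, had 1.52 and 1.22 kb in C2 and 0.50003 and 0.361 kb in C13 (log2 1.32, SE 0.244, adjusted p = 0.0453; HOMER 1.36, adjusted p = 0.0272). Kel, the Kell blood group protein, had 1.65 and 2.59 kb in C2 and 0.482 and 0.631 kb in C13 (1.59, adjusted p = 0.0437; HOMER 1.33, adjusted p = 0.0397). These 2 were called by both callers. Hba-a1, an alpha globin gene with a near-identical copy, had 4.01 and 3.98 kb in C2 and 0.896 and 1.01 kb in C13 (1.87, adjusted p = 0.0221), and it shares its peaks with the theta globin gene Hbq1b. Rhag and Aqp1, membrane channels of the red cell, and Gypc, a glycophorin, had log2 0.75, 0.62 and 0.86, and Abcb10, a mitochondrial transporter, and Tspo2, an outer membrane protein of erythroid mitochondria and endoplasmic reticulum, had 0.81 and 1.54. Trim10 had 1.45 and 1.09 kb in C2 and no F-Seq peak in C13, but HOMER gave it the opposite sign (-0.63, adjusted p = 0.280). Klf1, the erythroid Krüppel-like factor, and the erythropoietin receptor gene Epor did not pass (0.51 and 0.68, adjusted p = 0.136 and 0.0645), though Epor was called higher with the 20000 strongest peaks (1.41, adjusted p = 0.00331).

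Haematopoietic transcription factors were higher in C2 at 10 and lower at 1 of 46 tested loci, with a median of 0.37 near that of the housekeeping loci. The number higher was 7 without scaling, beside 2.81% of all loci. HOMER called 1 of the 46 higher and none lower, beside 1.97% and 4.18% of all loci. That 1 was Bcl11a (0.58, adjusted p = 0.0464), which did not pass with F-Seq (0.37, adjusted p = 0.0744). None of the 10 was thus called with HOMER. Zfpm1, the GATA cofactor FOG1, had 40.0 and 39.3 kb in C2 and 15.8 and 16.7 kb in C13 (log2 1.28, SE 0.0807, adjusted p = 0.0220). Gata2, a factor of stem cells, mast cells and early megakaryocyte progenitors, had 16.2 and 14.9 kb in C2 and 5.75 and 6.21 kb in C13 (1.35, SE 0.106, adjusted p = 0.0220). Both were far apart in covered length, but HOMER gave the opposite sign for both (-0.48 and -0.53, adjusted p = 0.161 and 0.117). At Gata2 3 of 5 tested regions ranked stronger in C2 and none weaker, and the foremost ranked 15020 and 15060 in C2 and 55027 and 53023 in C13 (1.84, adjusted p = 9.89e-05), while the region over the start did not pass (0.77, adjusted p = 0.0568). Zfpm1 had 6 of 12 tested regions stronger and none weaker. At both loci the ranks thus have the sign of the F-Seq length. They come from the same F-Seq lists as that length, so they cannot decide between the callers. Gfi1b, a repressor of megakaryocyte and erythroid development, had 5.09 and 5.37 kb in C2 and 2.49 and 2.66 kb in C13 (0.97, adjusted p = 0.0317), with -0.07 in HOMER.

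Runx1, which haematopoietic stem cells need in order to emerge and megakaryocytes to mature, had 51.6 and 49.1 kb in C2 and 22.1 and 26.3 kb in C13 (log2 1.06, SE 0.113, adjusted p = 0.0250). Myb, a factor of progenitor proliferation, had 23.2 and 14.7 kb in C2 and 5.20 and 5.45 kb in C13 (1.76, adjusted p = 0.0311). The C2 libraries of Myb lay apart from each other, and both lay above C13. Of the 21 regions at Myb 4 had peaks in both C2 and neither C13 library and none the reverse. Etv6, an ETS repressor, and Klf6 and Nfix, of the Krüppel-like and nuclear factor I families, also passed (0.51, 0.70 and 0.54), and Nfe2 and Cebpe, given above, complete the 10. The factor lower in C2 was Irf8. Gata1, the erythroid and megakaryocyte factor, Spi1 and Cebpa, the myeloid factors, and Fli1, an ETS factor of megakaryocytes, did not pass, with 0.89, 0.27, 0.27 and 0.39 (adjusted p from 0.0510 to 0.201). All 4 differences were positive, like the median of all loci, but other uncalled factors were lower in C2. Irf4 showed -1.52 (adjusted p = 0.0543) with F-Seq and 0.23 with HOMER. Id2, Mecom and Runx2 showed -0.27, -0.17 and -0.16 with F-Seq.

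**Figure D3:**
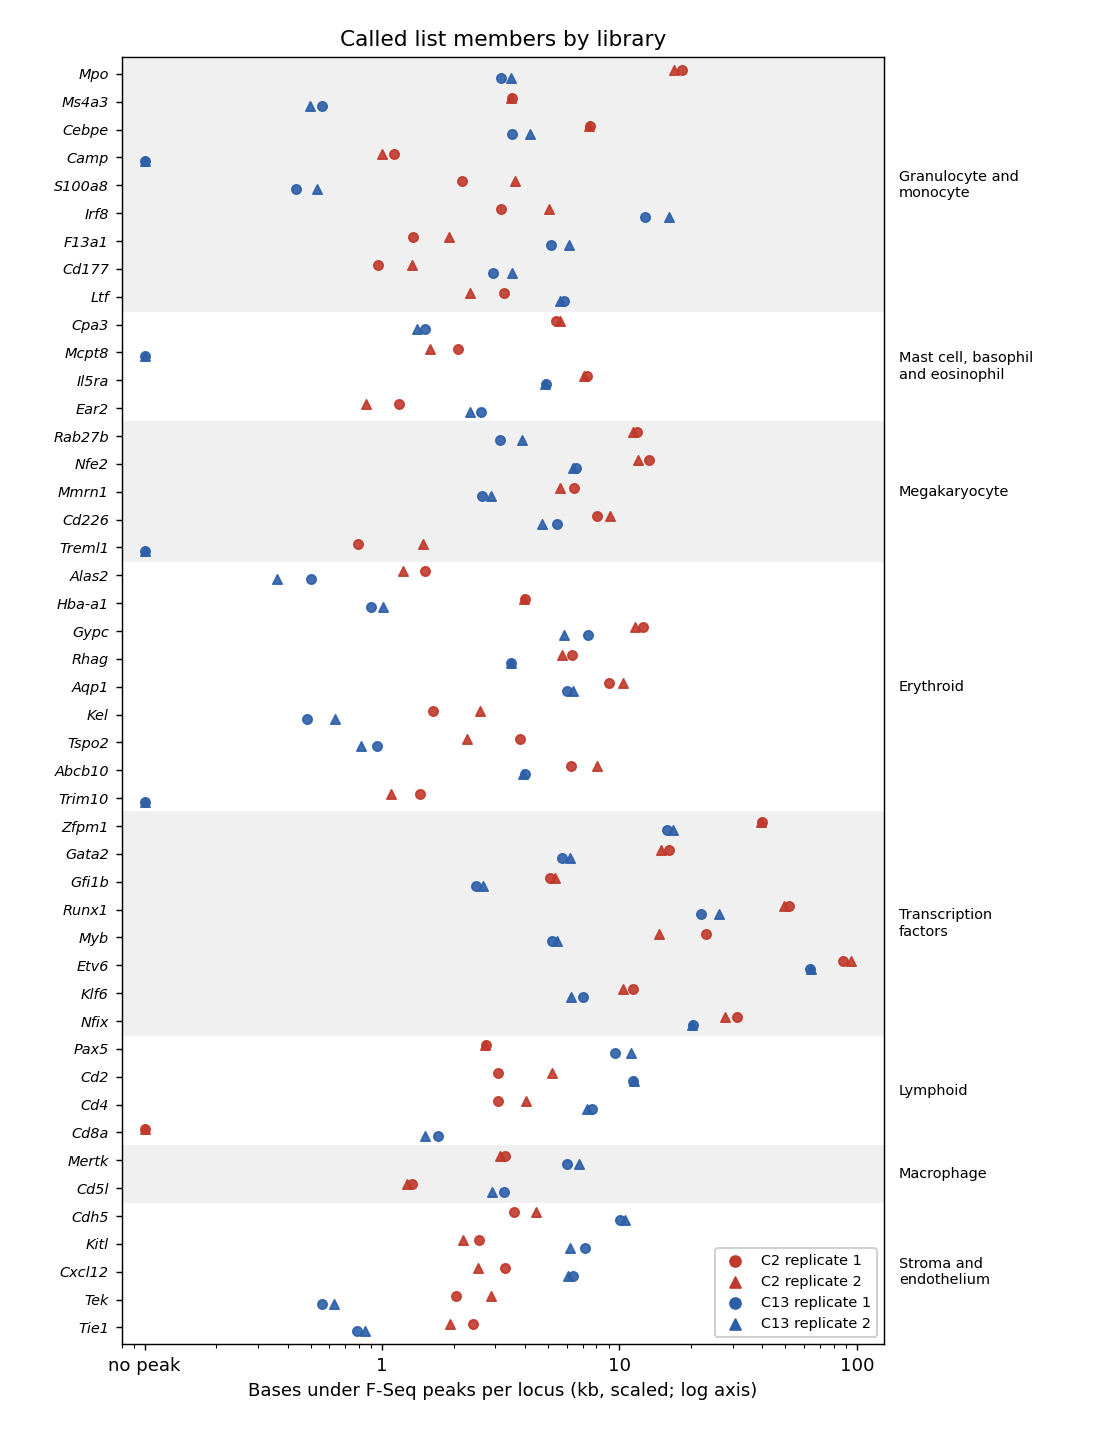
Covered length (kb under F-Seq peaks per locus, scaled, log axis) of called members of the lineage lists in each library, with C2 in red above C13 in blue in each row, replicate 1 as circles and replicate 2 as triangles, and libraries with no peak at the left edge. Megakaryocyte, erythroid and, apart from Irf8, transcription factor loci lie to the right in C2, granulocyte, monocyte, mast cell, basophil and eosinophil loci lie to both sides, and lymphoid and macrophage loci lie to the right in C13.

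Lymphoid loci that passed with F-Seq were all lower in C2, at 4 of 25 tested, with a median of -0.13. Over all loci 4.57% were lower and 5.59% higher. HOMER called 3 of the 25 lower and 1 higher, beside 4.18% and 1.97% of all loci. The lower ones were Pax5, Cd8a and Il2rb (-1.66 for Il2rb, adjusted p = 0.0423). The higher one was Dntt (1.07, adjusted p = 0.0374), which did not pass with F-Seq (-0.04, adjusted p = 0.895). With the 20000 strongest peaks 15 of the 25 could be tested, with 2 higher and 1 lower, beside 16.6% higher and 8.18% lower over all loci. The median was then 0.26, and 0.07 over all loci. Pax5, the factor of B cell commitment (chromosome 4, 44524748 to 44710694), had 2.75 and 2.70 kb in C2 and 9.54 and 11.1 kb in C13 (log2 -1.84, SE 0.133, adjusted p = 0.0220). HOMER called it lower too (-1.72, adjusted p = 0.0166). Of its 13 regions 7 had peaks in both C13 and neither C2 library, most of them inside the gene, and the region near the start, shared by all 4 libraries, ranked 28513 and 23462 in C2 and 30992 and 25566 in C13 (0.12, adjusted p = 0.757). Cd8a, a T cell and dendritic cell co-receptor, had no F-Seq peak in C2 and 1.73 and 1.52 kb in C13 (adjusted p = 0.0220; HOMER -2.34, adjusted p = 0.0166). Cd2, a T and NK cell adhesion receptor, had 3.08 and 5.21 kb in C2 and 11.4 and 11.5 kb in C13 (-1.47, adjusted p = 0.0421; HOMER -0.26, adjusted p = 0.576). Its change in rank was concentrated in 1 of 4 tested regions, over the lower-coordinate end of the gene, which ranked 31803 and 26886 in C2 and 3064 and 2191 in C13 (-3.50, SE 0.313, adjusted p = 2.11e-06). Cd4 had 3.08 and 4.04 kb in C2 and 7.68 and 7.31 kb in C13 (-1.05, adjusted p = 0.0373; HOMER -0.87, adjusted p = 0.0917), but with the 20000 strongest peaks it was called in the opposite direction (2.22, adjusted p = 0.0157). Ebf1, the B cell factor upstream of Pax5, had 13.1 and 10.03 kb in C2 and 20.9 and 18.9 kb in C13 and showed -0.78 (adjusted p = 0.0504, not called), and 0.26 with the 20000 strongest peaks.

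Of the macrophage loci 2 of 18 were lower and none higher in C2, with a median of -0.40. With the 20000 strongest peaks 1 of 9 was higher, 2 were lower and the median was 0.38, beside 16.6% higher and 8.18% lower over all loci. Mertk, the receptor by which macrophages take up dying cells, had 3.31 and 3.14 kb in C2 and 6.04 and 6.75 kb in C13 (log2 -0.95, SE 0.133, adjusted p = 0.0317). Cd5l, a secreted macrophage protein, had 1.34 and 1.27 kb in C2 and 3.25 and 2.91 kb in C13 (-1.12, adjusted p = 0.0346). Both kept the sign in HOMER without a call. The 3 complement C1q genes lay below C13 in both C2 libraries but did not pass (-0.38, -0.64 and -0.78 for C1qa, C1qb and C1qc). Other uncalled members went the other way, among them Vsig4 (0.40) and Vcam1 (0.88). HOMER called 1 of the 18 loci higher in C2, Vsig4 (0.999, adjusted p = 0.0420). It called 2 lower, Vcam1 and Timd4 (-1.23 and -2.04, adjusted p = 0.0436 and 0.0448), so Vcam1 had opposite signs with the 2 callers. Of the 40 macrophage regions tested for rank, 6 (15%) were stronger and 10 (25%) weaker in C2, beside 21.7% and 16.4% of all regions tested. Of all regions at macrophage loci 22.3% were found in both C13 and neither C2 library, against 1.94% the other way. Over all consensus regions these shares were 13.1% and 5.84%.

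Stroma and endothelium genes, listed because marrow sorts can hold such cells, had 3 of 17 loci lower and 2 higher in C2. Over all loci 4.57% were lower and 5.59% higher. HOMER called none of the 17 lower and 1 higher, beside 4.18% and 1.97% of all loci. That 1 was Pdgfrb (0.79, adjusted p = 0.0464), which did not pass with F-Seq (0.12, adjusted p = 0.506). Cdh5, the endothelial cadherin, had 3.60 and 4.44 kb in C2 and 10.1 and 10.5 kb in C13 (log2 -1.32, SE 0.143, adjusted p = 0.0250), with 8 of 17 regions in C13 alone. A region inside Cdh5 ranked 18036 and 14557 in C2 and 1720 and 1135 in C13 (-3.54, adjusted p = 4.01e-06). The ligand genes Kitl, stem cell factor, and Cxcl12, the chemokine that holds progenitors in the marrow, fell by 1.41 and 1.06 (adjusted p = 0.0254 and 0.0372). Tek and Tie1, angiopoietin receptor family genes that stem cells share with endothelium, went the other way. Tek had 2.05 and 2.88 kb in C2 and 0.558 and 0.625 kb in C13 (1.74, adjusted p = 0.0317), and Tie1 2.41 and 1.94 kb in C2 and 0.784 and 0.845 kb in C13 (1.22, adjusted p = 0.0403). HOMER gave Cdh5, Kitl, Cxcl12, Tek and Tie1 the same signs without a call (-0.33, -0.26, -0.39, 0.93 and 0.56). All 17 tested stroma and endothelium loci and all 18 tested macrophage loci held F-Seq peaks in at least 1 library of each population. The stroma and endothelium list has 19 genes, and only loci covered in at least 2 of the 4 libraries were tested. Among the tested loci Col3a1 and Timd4 had no F-Seq peak in C2 replicate 1. The summed covered length of the tested stroma and endothelium loci was 70.2 and 77.5 kb in C2 and 79.9 and 83.3 kb in C13. For macrophage loci it was 63.9 and 63.2 kb in C2 and 76.9 and 81.8 kb in C13. For the lymphoid list it was 137 and 124 kb in C2 and 158 and 161 kb in C13, and of its 25 tested loci only Cd8a had no F-Seq peak in C2. All 3 sums were lower in C2, and so was that of the non-haematopoietic list (37.1 and 46.4 kb in C2, 51.1 and 51.2 kb in C13). The part of these lists in the other results was not tested.

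Stem and multipotent genes had 3 of 25 loci higher in C2 and none lower (median 0.14, and -0.0017 without scaling), Tek and Hoxb5 among them. Hoxb5, a homeobox gene of long-term stem cells, had 5.85 and 6.12 kb in C2 and 2.56 and 2.96 kb in C13 (log2 1.07, adjusted p = 0.0311). Flt3, the receptor of multipotent progenitors that megakaryocyte and erythroid cells lose, had 20.1 and 13.9 kb in C2 and 17.5 and 21.4 kb in C13 and overlapped (-0.21, adjusted p = 0.519). Of the 20 cytokine receptor loci 2 passed, Il5ra among them (median 0.08, and -0.06 without scaling, where neither did), and of the 25 integrin, tetraspanin and sialomucin loci Tspan32 (0.62, adjusted p = 0.0480), a tetraspanin of blood cells. None of the 14 tested non-haematopoietic loci passed at the limma threshold, and the largest differences were -1.62 at Olig2 (adjusted p = 0.0622), an oligodendrocyte factor that HOMER called lower (-1.39, adjusted p = 0.0198), and -1.48 at the albumin gene Alb (adjusted p = 0.387). With C13 replicate 1 or 2 left out, 7 and 8 of the 58 called loci chosen by rule that could then be tested kept their call.

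**Figure D4:**
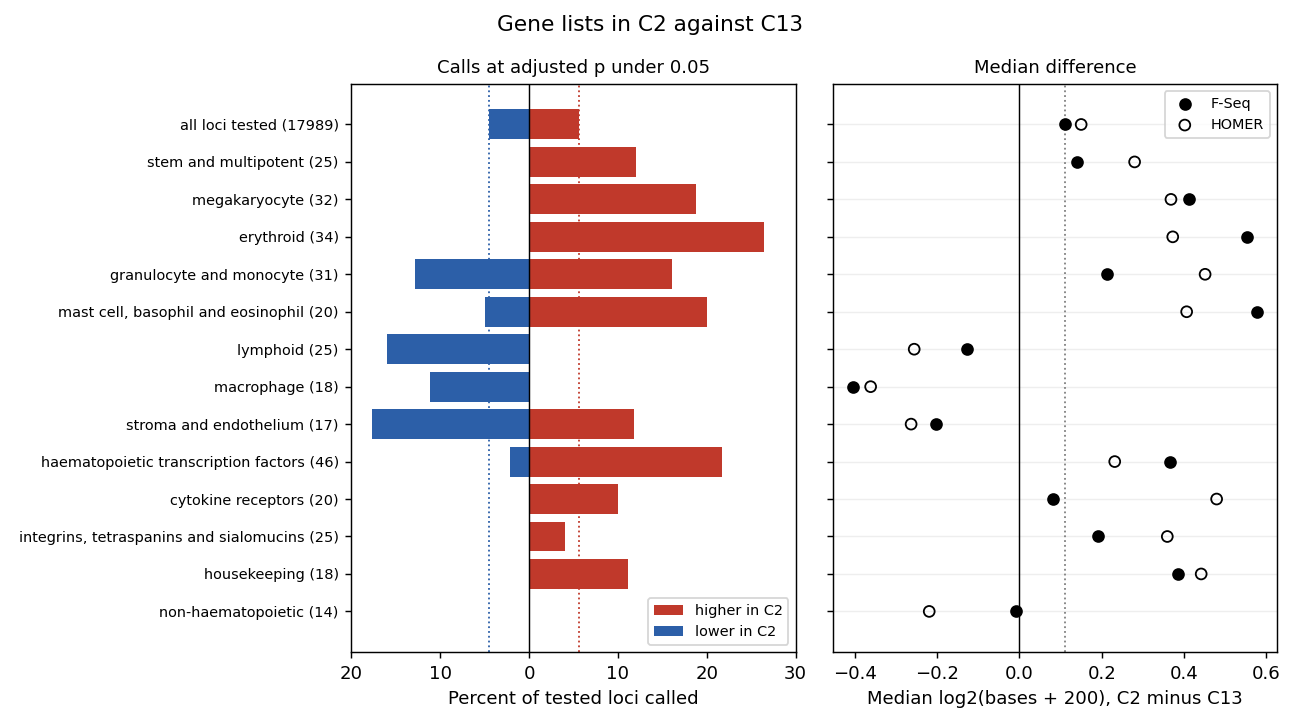
Left, percent of the tested loci of each list (number in brackets) that were called higher (red, to the right) or lower (blue, to the left) in C2, with dotted lines at the 5.59% and 4.57% of all loci; right, the median C2 minus C13 difference on the log2(bases + 200) scale with F-Seq (filled) and HOMER (open). The erythroid and mast cell lists lie farthest to the right with F-Seq and the macrophage list farthest to the left, and the housekeeping list lies to the right with both callers.

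Among the 10 higher loci with the smallest p whose sign HOMER shared, Adamts5, an aggrecan-cleaving protease, had 4.49 and 4.25 kb in C2 and no F-Seq peak in C13 (adjusted p = 0.0220; HOMER 1.75, adjusted p = 0.0299). Aldh1a1, a retinaldehyde dehydrogenase, had 4.81 and 4.67 kb in C2 and 0.541 and 0.561 kb in C13 (log2 2.72, SE 0.172, adjusted p = 0.0220; HOMER 2.77, adjusted p = 0.0166). Both were higher in each C2 library and were called by both callers. Beside Mpo, Lpo, Hbq1b and Mcpt8 the rest were Sdsl, a serine dehydratase-like gene with 2.16 and 2.29 kb in C2 and no F-Seq peak in C13, Gm35751, and Olfr769 and Sprr2a2, members of the multicopy olfactory receptor and small proline-rich families, where read placement is uncertain. Each of the 10 lower loci had no F-Seq peak in either C2 library: Fam50b (2.69 and 2.42 kb in C13), Ptf1a (2.49 and 2.28 kb), a factor of pancreas and cerebellum development, Gm46058, Dapl1, Atp13a5, Tmem225 and Dmbt1, and the multicopy genes Klk1b9, Klk1b1 and Duxbl3, of uncertain read placement. HOMER called 9 of these 10 lower, all except Gm46058 (-1.46, adjusted p = 0.0736). Of the 10 higher loci it called Adamts5, Aldh1a1 and Sprr2a2 (1.70 for Sprr2a2, adjusted p = 0.0272) and none of the others. At a locus with no peak in a population the spread comes from the other population alone, and 150 of the higher and 244 of the lower calls were of this kind.

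**Figure D5:**
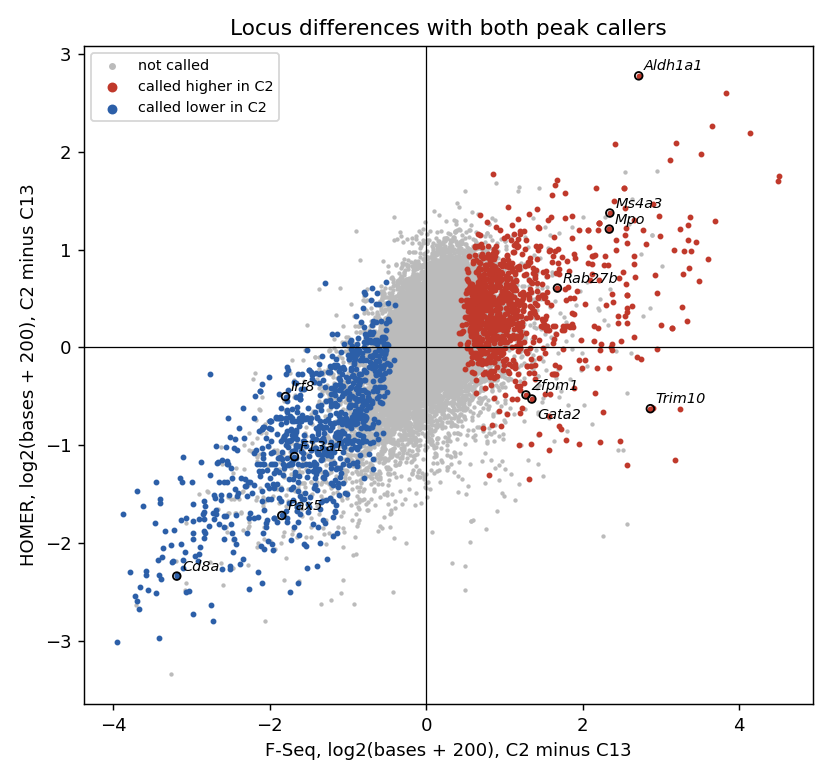
C2 minus C13 difference of each tested locus on the log2(bases + 200) scale with F-Seq (horizontal) and HOMER (vertical), with loci called higher in C2 with F-Seq in red, loci called lower in blue and others in grey. The lower calls form a band with negative HOMER values, while the higher calls spread to both sides of 0 in HOMER, Trim10, Gata2 and Zfpm1 among those below it.

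Private regions numbered 8615 in C2 and 19385 in C13. These were weak peaks for the most part: both peaks were among the 50000 strongest of their lists at 1855 C2 regions and 3889 C13 regions, and among the 20000 strongest at 223 and 420. HOMER placed a peak in both libraries of the own population at 58.2% of the C2 regions and 90.3% of the C13 regions, and in the other population at 30.8% and 8.94%. Regions found in a single library numbered 19604 and 14969 for C2 and 4550 and 4502 for C13, so without C2 replicate 1 or 2 the C2 set held 23584 and 28219 regions.

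The C2 private regions were most numerous at Cdk6, the cell cycle kinase of blood progenitors, with 16 of the 60 regions of the locus and 2 private to C13. Gse1 (12 of 106), a corepressor subunit, Etv6 (11 of 88), Runx1 (10 of 58), and Foxp1, Nfia and Zeb2, transcription factors with 9 each, followed. The private regions of Runx1 and Cdk6 lay almost wholly on the C2 side, whereas Foxp1 (of 112 regions) also held 21 private to C13 and Nfia 9. The C13 private regions were led by Nav2, a cytoskeletal navigator gene first known from neurons (29 of 113), then Foxp1, Elmo1 (20 of 68), an adaptor of cell migration and engulfment, Hdac9 (19 of 59), a histone deacetylase, and Pde4d (18 of 104), a phosphodiesterase. All of these are long genes, from 134 kb at Zeb2 to 1302 kb at Pde4d, and long loci hold more regions. Over all consensus regions 5.84% were private to C2 and 13.1% to C13. By list these shares were 11.4% and 5.71% at transcription factor loci and 11.8% and 6.30% at erythroid loci. They were 16.0% and 7.63% at mast cell, basophil and eosinophil loci and 5.26% and 17.9% at lymphoid loci. Other lists also lay above the C2 share of all regions, among them stem and multipotent (9.95% and 8.98%), megakaryocyte (10.4% and 4.44%) and granulocyte and monocyte loci (10.8% and 14.7%).

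Among regions shared by all 4 libraries, the 5 stronger-ranked with the smallest p lay on chromosome 5 outside any locus (146703135 to 146704596; ranks 2215 and 3121 in C2, 76204 and 84489 in C13) and inside Pcdh7, a protocadherin, Fshr, the follicle-stimulating hormone receptor, Acacb, an acetyl-CoA carboxylase, and the locus of Itga4, the alpha 4 integrin chain by which progenitors adhere in marrow. The Itga4 region ranked 4393 and 3342 in C2 and 84487 and 70797 in C13 (4.34, SE 0.290, adjusted p = 3.76e-07), while the covered length of Itga4 showed 0.19 (adjusted p = 0.273). The rank of this region differed while the length of its locus did not pass. The 5 weaker-ranked regions lay at Fbxo48, on chromosome 1 outside any locus (120531753 to 120534326), and inside Itpr1, the inositol trisphosphate receptor, Ccdc93 and Cep170. The Itpr1 region ranked 68170 and 36251 in C2 and 674 and 653 in C13 (-6.23, SE 0.354, adjusted p = 2.34e-07), and the Fbxo48 region 89736 and 63070 in C2 and 1807 and 1298 in C13 (-5.62, SE 0.317). In each of them the C13 libraries placed the peak near the top of their lists and the C2 libraries far lower.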

How the data were processed

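ATAC-seq libraries of C2 and C13 (2 each, grouped by title and sorted phenotype) were compared from peak lists that the authors called separately in each library, on mm10 with Bowtie 1.0.0 and HOMER 1.0 per the submitters' processing notes; no source used here gives the version or settings of F-Seq. In the deposited F-Seq lists the peak height is a signal estimated from read density, and the deposited HOMER lists hold peaks with unlabelled score columns; the authors' signal served only for ranks inside each list. No counts or depths are in the lists, so no counting interval is given.

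Loci were 21887 protein-coding gene bodies of RefSeq on GRCm38.p6, the assembly of mm10, extended by 10 kb. Of the 308 list genes 306 had a locus and 296 were tested. Bases under peaks were scaled by factors from 0.941 to 1.07, and the 17989 loci covered in at least 2 of the 4 libraries were tested as log2(bases + 200), which understates changes of short covered lengths, with limma 3.58.1 (R 4.3.3, eBayes with trend) and Benjamini-Hochberg adjustment over all loci at 0.05. The same fit was made for -log2(rank) over merged regions with a peak in all 4 libraries (overlap of at least 1 base). On simulated data with 100 loci changed by a log2 value of 1 and 100 by 2, 63 and 95 were called with the right sign, and 9 unchanged loci of the 17989 were called; for the 57286 regions 19 and 97 of 100 were called, and 5 unchanged regions. The simulation gave both populations the same normal spread at each locus or region. In the data the median SD of a locus was 0.181 in C2 and 0.0755 in C13. The simulated numbers of right and wrong calls may therefore not hold for these data. Neighbouring loci can share peaks.

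The members and gene lists were chosen with earlier results of these data known. Named loci are all sort markers, the 10 higher and 10 lower calls with the smallest p whose sign HOMER shares, all called list members, except 1 that is not reported here (for a list with none, the 2 largest differences), the 5 regions of smallest p in each direction and the 5 loci with most private regions of each set. Uncalled genes named beside them, the Cebpe, Itga2b, Cd9, Cd34, Kit, Cpa3, Nfe2, Gata2, Irf8, Pax5, Cd2 and Cdh5 regions and the Itga2b promoter were chosen after their values were seen. Of the 21887 loci 17492 had a RefSeq promoter window. The alternatives tried were other scalings, pseudocounts of 50 and 1000 bases, other filters, the HOMER lists, peaks of both callers, the 50000 and 20000 strongest peaks, the number of peaks, windows of 2 and 50 kb, no trend, all 8 libraries, a replicate block and each library left out.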

Additional observations from a re-analysis of the deposited data

How the results depend on the processing

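The 1005 loci higher in C2 became 2221 with the 20000 strongest peaks, 364 in the HOMER lists, 553 without the trend, 614 with 2 kb and 2188 with 50 kb around the gene body, 506 without scaling, 524 with upper-quartile scaling and 620 with peaks of both callers. The 822 loci lower in C2 became 453 with all 8 libraries in the fit, 1347 with 50 kb and 534 when loci covered in at least 1 library were tested. Leaving out each library in turn gave 14 to 3370 loci higher and 0 to 2413 lower, 6360 to 16677 regions ranked stronger and 6034 to 11858 weaker, 9937 to 28219 regions private to C2 and 23343 to 28003 private to C13. The lowest values of the locus and rank counts came without a C13 library, where the spread rests on the C2 libraries. Peaks of both callers left 5475 regions private to C2. Those private to C13 numbered 54773 with HOMER and 9774 with the 50000 strongest peaks.

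The numbers of replicates do not pair the libraries (r = -0.01 over 17989 loci between the deviations of the replicates numbered 1), and with the replicate block 964 loci were higher and 850 lower, and 13729 regions ranked stronger and 10129 weaker. Of 69 called loci chosen by rule, 63 kept their call with the replicate block, 54 without scaling and all 69 with a pseudocount of 1000 bases, whereas 19 of 68 kept it in the HOMER lists and 27 of 40 with the 20000 strongest peaks.

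Signs turned in the HOMER lists at Trim10 (-0.63), Gata2 (-0.53), Zfpm1 (-0.48), Gfi1b (-0.071) and Cd34 (0.55). They turned with the 20000 strongest peaks at Aqp1 (-0.53), F13a1 (0.066), Il5ra (-1.87) and Cd4 (2.22), and with the 50000 strongest at Cd48 (-0.53) and Cd34 (0.023). Counting peaks turned Kit (0.080), Cd34 (0.12), Rhag (-0.33) and Rpl13a (-0.17). With 50 kb Cd48 (-0.073), Gm35751 (-0.031) and Cd34 (0.050) turned, with 2 kb Cd34 (0.012), and with upper-quartile scaling Cd9 (-0.0046). Leaving out a library in turn gave Cd34 -0.16 to 0.13, Cd9 -0.041 to 0.38 and the locus Alb -3.11 to 0.14. The cause of these turns was not tested. Depth, which the lists do not give, limits how far an absent F-Seq peak can be read as closed chromatin.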

Other observations

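A few peaks stood at the very top of the C2 lists. Regions inside Zfp804b and Stxbp4 ranked 1 and 2 in both C2 libraries, against 81 and 1395 in C13 for Zfp804b and 65 and 2312 in C13 for Stxbp4. At Eef2, an elongation factor gene that all cells use, the covered length was higher in C2 (12.8 and 12.3 kb in C2, 7.999 and 8.72 kb in C13), yet the region over the lower-coordinate end of the gene had no F-Seq peak in C2 and ranks of 51858 and 43783 in C13.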
